A study of Mus musculus with 8 samples.

Results

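The ribosome biogenesis genes described here are 36 genes, chosen by name from the 41249 named genes of the gene table, whose products make or assemble ribosomes. They were measured in B cells of the mouse spleen, of which some were cultured for 48 hours with 5 µg/mL lipopolysaccharide (LPS, the endotoxin of Gram-negative bacteria, which B cells sense by the receptor TLR4; called stimulated here) and others were used fresh (called resting). In each state there were 4 genotypes: animals homozygous for a deletion of the 3'RR (a group of enhancers that follows the constant genes of the IgH locus), animals homozygous for a deletion of the hs3b and hs4 enhancers of that cluster (hs3b-hs4 deletion), animals homozygous for the 3'PAL deletion, of which the labels give only the name, and wild-type animals. All were of mixed background, written 129/C58BL/6 in the labels. Ages are not given. Each of the 8 libraries came from CD43-negative B cells pooled from 4 animals, so there was 1 library for each genotype in each state. The 4 genotypes served as replicates of the comparison of states, and a comparison of genotypes within a state had no replicate. No library came from cells cultured without LPS. Effects of LPS, of the culture itself and of which cells survived it therefore cannot be told apart in any comparison of states. Nothing in the labels says whether the same animals gave the stimulated and the resting pool of a genotype.

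Ribosomes are built in the nucleolus, where RNA polymerase I transcribes the ribosomal RNA precursor. Small nucleolar ribonucleoproteins (snoRNPs) guide its methylation (the C/D class) and pseudouridylation (the H/ACA class), and large sets of assembly factors then fold and cut the precursor while ribosomal proteins join the small and the large subunit. B cells that leave rest grow before they divide and need many new ribosomes for this, and the transcription factor Myc is known to bind and activate many genes of this pathway.

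Total gene counts were highest in the stimulated wild-type library (28785192) and lowest in the resting wild-type library (17883683). All 36 genes passed the filter on low counts, and their lowest count in any library was 250, for Gar1 in resting wild-type cells. Their lowest CPM (counts relative to library size after scaling by the trimmed mean of M values) was 9.35, for Gar1 in resting 3'RR deletion cells. The resting wild-type library stood apart for AY036118, known to overlap ribosomal RNA sequence, which took 1.94% of its counts and at most 0.0842% elsewhere. No B cell marker of the list used was at 0 in any library, and the 6 summed to between 2321 and 2928 CPM in stimulated and between 3014 and 3147 CPM in resting cells, with 4 of 6 called lower. Markers of erythroid cells and of monocytes and macrophages were far higher in resting cells. Erythroid markers summed to 10.4 to 244 CPM in stimulated against 3111 to 21577 CPM in resting cells, with 9 of 9 called lower. Monocyte and macrophage markers summed to 8.29 to 16.8 CPM against 350 to 1586 CPM, with 11 of 11 called lower. Csf1r and the C1q genes were at 0 in at least 1 stimulated library. The sum of T cell markers was 11.2 to 22.4 CPM in stimulated and 32.4 to 65.4 CPM in resting cells, with 3 of 9 called lower. That of neutrophil markers was at most 0.0793 and 3.35 CPM, with 1 of 6 called lower. Plasma cell markers summed to 970 to 2115 CPM in stimulated and 956 to 1829 CPM in resting cells, with 3 of 6 called higher and 1 lower. In pooled cells, fewer cells of a type and less RNA per cell cannot be told apart, and the part of these markers in the results was not tested.

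The ribosome biogenesis genes were higher in stimulated cells almost without exception. Of the 36, 35 were called higher, none was called lower and 1, Gnl3, was not called (edgeR's quasi-likelihood test with Benjamini-Hochberg adjustment over 14789 genes, threshold 0.05), where 34.5% of all genes tested were called higher and 35.2% lower. Without adjustment, 35 had a p under 0.05 in this test. The share of all genes under that threshold is not given here, so this count is not read as a result about the 36. Their median log2 fold change was 1.07, a 2.1-fold difference, against -0.02 over all genes tested. In 22 of them (61.1%) the difference was at least 2-fold, against 17.3% of all genes. It was at least 3-fold in 6 (Nop16, Npm1, Dkc1, Nhp2, Rrp1b and Nop2), against 1189 of the 14789 genes tested. All 4 stimulated libraries lay above all 4 resting ones in 33 of the 36, against 30.8% of all genes tested, and the libraries of the 2 states overlapped in Gnl3, Tsr1 and Utp15. Summed over the 36 genes, the level was 6373 CPM in stimulated 3'RR deletion, 6725 in hs3b-hs4 deletion, 5331 in 3'PAL deletion and 7885 in wild-type cells, against 2596, 3040, 3126 and 2951 CPM in resting cells of the same genotypes. The genes thus took 0.53 to 0.777% of all counts in stimulated libraries and 0.263 to 0.321% in resting ones. Below, 4 values of 1 state run in the order 3'RR deletion, hs3b-hs4 deletion, 3'PAL deletion and wild type.

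**Figure D1:**
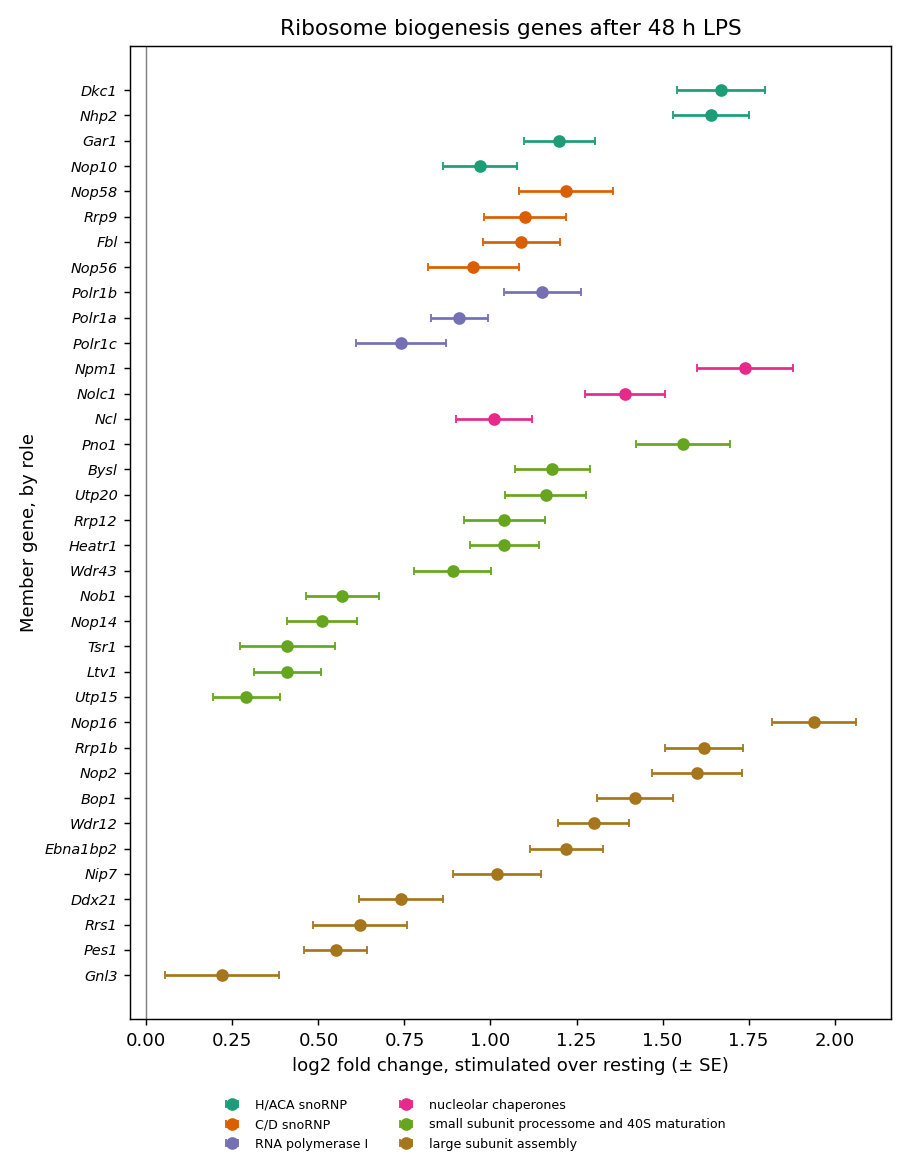
Log2 fold change (x axis) of each of the 36 ribosome biogenesis genes, stimulated over resting, from the edgeR fit over 8 libraries, ordered by role; points are estimates and bars are 1 standard error. All 36 points lie right of 0, from 0.22 for Gnl3 to 1.94 for Nop16.

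All 4 proteins of the H/ACA snoRNP, which pseudouridylates ribosomal RNA and also holds telomerase RNA, rose, with a median log2 fold change of 1.42. Dkc1, the pseudouridine synthase itself, had 158, 170, 125 and 186 CPM in stimulated cells, against 46.2, 54.8, 52.5 and 46.4 CPM in resting cells. Every stimulated library was far above every resting one, and stimulated 3'PAL deletion cells had the lowest of the 4 stimulated values. The log2 fold change of Dkc1 was 1.67 ± 0.127 (SE; edgeR adjusted p = 3.5e-05). Nop10, the smallest of the 4 proteins, had the least difference of this class. It stood at 66.6, 77.5, 66.8 and 86.7 CPM in stimulated cells and at 35, 44.3, 37.9 and 34.2 CPM in resting cells, with no overlap (log2 fold change 0.97 ± 0.108, edgeR adjusted p = 0.00019). Nhp2, a core protein that binds the guide RNA, rose by 1.64 ± 0.111 and Gar1, which helps in the turnover of the substrate, by 1.20 ± 0.103 on the log2 scale (edgeR adjusted p = 2.3e-05 and 5.6e-05).

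The 4 proteins of C/D snoRNPs, which methylate the ribose of ribosomal RNA or process it, rose within a narrow range, with a median log2 fold change of 1.10. Nop58, a core protein of these particles, had 257, 290, 220 and 343 CPM in stimulated and 99.4, 127, 131 and 117 CPM in resting cells. The states did not overlap, and the wild-type library was the highest stimulated one. Its log2 fold change was 1.22 ± 0.136 (edgeR adjusted p = 0.00019). Nop56, its paralogue in the same particle, differed least, with 267, 289, 219 and 315 CPM in stimulated and 123, 148, 157 and 135 CPM in resting cells. The states were again apart, but the lowest stimulated value (3'PAL deletion) was only 1.39 times the resting value of its own genotype, against 2.33 times in wild-type cells. The log2 fold change of Nop56 was 0.95 ± 0.132 (edgeR adjusted p = 0.00054). Fbl, the methyltransferase fibrillarin, and Rrp9, a protein of the U3 particle that takes part in the first cuts of the precursor, rose by 1.09 ± 0.112 and 1.10 ± 0.12 on the log2 scale (edgeR adjusted p = 0.00012 and 0.00016).

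The 3 RNA polymerase I genes rose by a median of 0.91 on the log2 scale. Polr1b, which encodes the second largest subunit, had 61.9, 71.1, 48.5 and 73.1 CPM in stimulated and 27.4, 32.2, 27.4 and 26.5 CPM in resting cells. The 2 states lay apart, and 3'PAL deletion cells again had the lowest stimulated value. Its log2 fold change was 1.15 ± 0.112 (edgeR adjusted p = 9.7e-05). Polr1c, a subunit shared with RNA polymerase III, had 52.3, 43.4, 45 and 45.1 CPM in stimulated and 25.5, 32.7, 31.9 and 22.4 CPM in resting cells. It was the only one of the 36 genes with its highest stimulated value in 3'RR deletion cells. Its log2 fold change was 0.74 ± 0.131 (edgeR adjusted p = 0.0018). Polr1a, the largest subunit, rose by 0.91 ± 0.0817 (edgeR adjusted p = 6.7e-05).

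The 3 nucleolar chaperones, abundant proteins that shuttle assembly factors and ribosomal proteins, included the highest values of the set. Npm1 (nucleophosmin) had 1964, 1891, 1486 and 2306 CPM in stimulated and 527, 542, 610 and 583 CPM in resting cells. The resting values lay close to each other, while the stimulated ones spread more widely, with 3'PAL deletion lowest and wild type highest. Npm1 rose by 1.74 ± 0.139 on the log2 scale (edgeR adjusted p = 4e-05). Ncl (nucleolin), which binds the precursor RNA and ribosomal DNA chromatin, had 567, 611, 579 and 937 CPM in stimulated and 257, 286, 364 and 423 CPM in resting cells. The 3 stimulated mutant libraries were close to each other and well below wild type, and in resting cells too wild type was highest. The log2 fold change on stimulation was 1.01 ± 0.11 (edgeR adjusted p = 0.00016). Nolc1, a chaperone of snoRNPs, rose by 1.39 ± 0.116 (edgeR adjusted p = 4.8e-05).

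**Figure D2:**
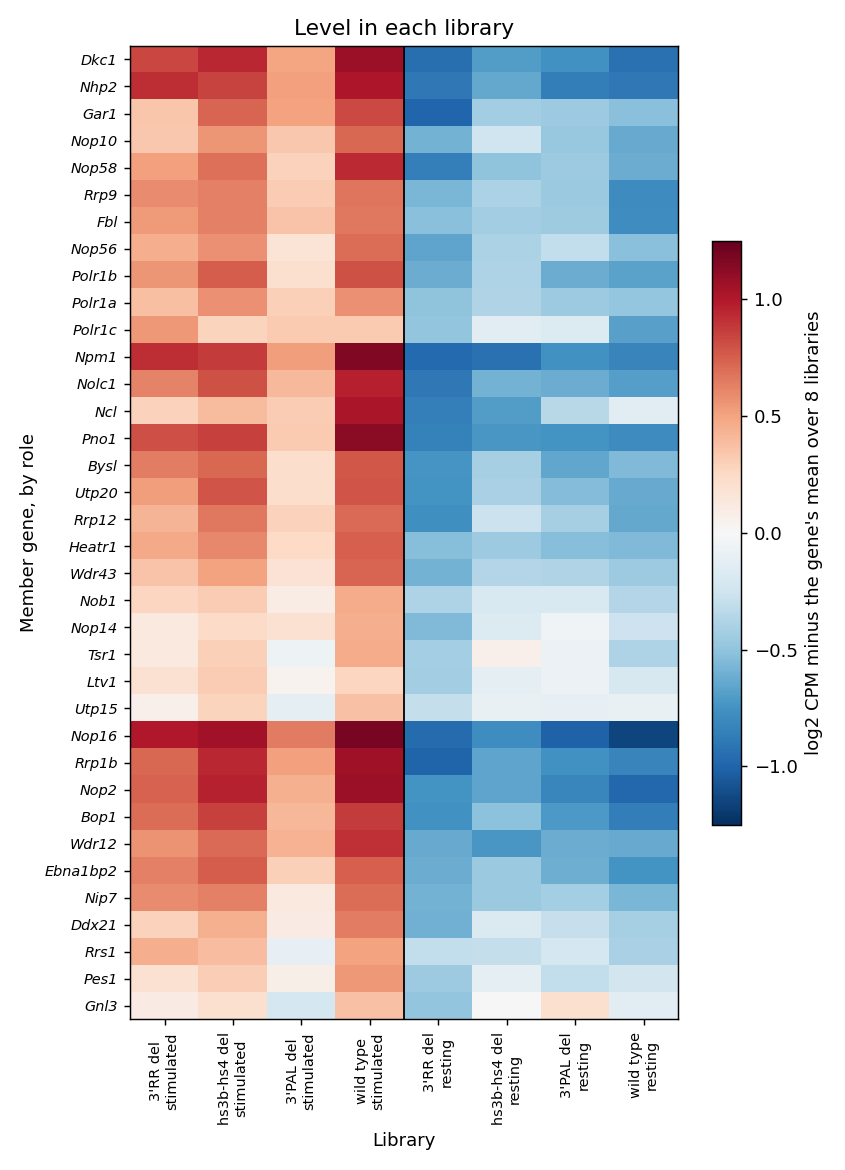
Level of each of the 36 genes in each of the 8 libraries as log2 CPM minus the gene's own mean over the 8 libraries (colour scale; red above and blue below that mean), with stimulated libraries left and resting libraries right of the line. The stimulated 3'PAL deletion column is the palest of the stimulated ones for most genes, and the rows of Gnl3, Tsr1 and Utp15 show states that overlap.

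All 11 genes of the small subunit processome and of late small subunit maturation rose, but over a wide range, with a median log2 fold change of 0.89. Pno1, an assembly factor that stays on the small subunit precursor until its last cut, had 80.5, 83.2, 58 and 101 CPM in stimulated and 25.7, 27.8, 27.4 and 26.7 CPM in resting cells. Its resting values were nearly equal in the 4 genotypes. Pno1 rose by 1.56 ± 0.136 on the log2 scale (edgeR adjusted p = 6e-05). Bysl, Utp20, Rrp12 and Heatr1, which act in the assembly or export of the small subunit precursor, rose by 1.18, 1.16, 1.04 and 1.04 on the log2 scale, Wdr43 by 0.89, and Nob1, the nuclease of the last cut, and Nop14 by 0.57 and 0.51.

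At the low end of the small subunit genes were Ltv1, Tsr1 and Utp15, whose calls were lost in some alternative fits. Those of Tsr1 and Utp15 were near the threshold. Utp15, a processome subunit known to be needed for precursor transcription as well, had 64, 74, 56.4 and 78.7 CPM in stimulated and 49.8, 57.6, 57.1 and 57.3 CPM in resting cells. The stimulated 3'PAL deletion value fell among the resting ones. The log2 fold change was 0.29 ± 0.0977 (edgeR adjusted p = 0.03), and it stayed between 0.25 and 0.28 with an adjusted p between 0.095 and 0.14 when any 1 of the 6 libraries other than those of 3'PAL deletion was left out. With RLE scaling in edgeR and with DESeq2 the adjusted p was 0.063 and 0.08. Tsr1, a factor bound to the late small subunit precursor, gave 0.41 ± 0.139 (edgeR adjusted p = 0.031), but 0.34 and 0.37 (0.12 and 0.1) without the stimulated or the resting 3'RR deletion library, and 0.28 and 0.28 (0.092 and 0.094) without the stimulated or the resting wild-type library. Ltv1, which helps the precursor leave the nucleus and mature, gave 0.41 ± 0.0982 (edgeR adjusted p = 0.0075), and 0.32 (0.058) without the stimulated 3'RR deletion library.

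Of the 11 large subunit assembly genes, 10 rose, with a median log2 fold change of 1.22 over the 11. Nop16 had the largest difference of all 36 genes. It had 60.3, 62.6, 47.3 and 68.6 CPM in stimulated and 15.5, 17.6, 15 and 13.6 CPM in resting cells, so that wild-type cells were the lowest at rest and the highest when stimulated. Its log2 fold change was 1.94 ± 0.122, or 3.84-fold (edgeR adjusted p = 1.9e-05). Rrp1b, related to a large subunit factor of yeast, and Nop2, a methyltransferase of the large subunit RNA, rose by 1.62 and 1.60. The 3 members of the PeBoW complex, which is needed for large subunit maturation and cell proliferation, did not rise alike: Bop1 and Wdr12 rose by 1.42 ± 0.11 and 1.30 ± 0.103, and Pes1 by 0.55 ± 0.0911 (edgeR adjusted p = 3.7e-05, 3.9e-05 and 0.0013). Whether these changes differ between the 3 genes was not tested. Ebna1bp2 and Nip7 rose by 1.22 and 1.02, the helicase Ddx21 by 0.74 and Rrs1, which helps bring the 5S particle into the large subunit, by 0.62.

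Gnl3 (nucleostemin), a GTP-binding nucleolar protein found at high levels in stem cells and dividing cells, was the exception. It had 181, 194, 145 and 217 CPM in stimulated and 120, 168, 194 and 153 CPM in resting cells. In 3'PAL deletion cells the stimulated library was the lowest of its state and the resting library the highest, so that the order of states was turned round there. Over all genotypes its log2 fold change was 0.22 ± 0.166 (edgeR adjusted p = 0.27). Without the stimulated or the resting 3'PAL deletion library it was 0.45 and 0.43, and edgeR called it higher (adjusted p = 0.0094 and 0.011).

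Levels of different genes can be compared in TPM, which is scaled to transcript length. Npm1 averaged 1764 ± 321 TPM in stimulated and 539 ± 111 TPM in resting cells (SD, n = 4 libraries each) and was the highest of the 36 in both states. It was followed in stimulated cells by Nop58 (320), Nop56 (286), Ncl (240) and Fbl (131), a group of chaperones and C/D snoRNP proteins. These levels are summed over all transcripts of a gene. For Ncl, 200 of the 240 TPM lay in transcripts annotated as retaining an intron, for Nop56 112 of the 286 and for Nop58 37.3 of the 320. The median of the 36 genes was 51.4 TPM in stimulated and 25.8 TPM in resting cells, and the lowest level in both states was that of Bysl (13.2 ± 1.98 and 5.97 ± 1.39 TPM). Npm1 and Ncl together made up 43.7 to 47.2% of the summed TPM of the 36 genes in stimulated and 33.3 to 38.2% in resting libraries. Most genes held another rank in the other state, and Nop16 moved furthest, ranking 19th in stimulated and 32nd in resting cells. The resting wild-type library had the lowest TPM of the resting libraries for each of the 36 genes, with a sum of 1254 TPM against 1978 to 2193 TPM in the other 3 resting libraries, although its summed CPM was not the lowest.

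Promoters of the RefSeq table (build GRCm38.p6, from 250 bases before to 50 bases after the start of the gene) were found for 31 of the 36 genes; Bop1, Fbl, Npm1, Rrp12 and Rrs1 had no entry there. The letters CACGTG, the canonical E-box that Myc with Max is known to bind, stood in the promoters of 7 of the 31 genes (22.6%), against 8.09% of 27025 genes with a promoter in the table. The 7 were Ltv1, Nop2, Pes1, Pno1, Tsr1, Utp20 and Wdr43, whose log2 fold changes on stimulation ran from 0.41 to 1.60. The letters read the same on both strands. CCGGAA, the core of sites for ETS factors, stood on either strand in 14 of the 31 (45.2%, against 16.7% of all genes) and TCGCGA in 4 (12.9% against 2.86%). The 27025 genes were not limited to the 14789 genes tested for expression here, whereas the 31 were all among those tested. The shares therefore do not compare like with like, and the part of promoter base composition was not tested. A match is a run of letters and not a measured binding site. The promoters below are those of Nop2 and Pno1, which rose most of the 7, and of Ltv1 and Tsr1, which rose least, read 5′ to 3′ along the gene with CACGTG in capitals. In Nop2 (chr6:125131633-125131932, plus strand) the hexamer begins 60 bases before the start. In Pno1 (chr11:17211540-17211839, minus strand), Ltv1 (chr10:13193088-13193387, minus strand) and Tsr1 (chr11:74897830-74898129, plus strand) it begins at bases 38, 29 and 25 counted from the start of the gene.
Nop2: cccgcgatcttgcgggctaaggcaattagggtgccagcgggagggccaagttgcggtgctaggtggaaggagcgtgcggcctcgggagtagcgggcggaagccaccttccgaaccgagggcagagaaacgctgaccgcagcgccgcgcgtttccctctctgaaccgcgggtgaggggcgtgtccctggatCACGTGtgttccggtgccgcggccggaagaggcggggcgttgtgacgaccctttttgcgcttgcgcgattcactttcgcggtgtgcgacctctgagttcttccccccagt
Pno1: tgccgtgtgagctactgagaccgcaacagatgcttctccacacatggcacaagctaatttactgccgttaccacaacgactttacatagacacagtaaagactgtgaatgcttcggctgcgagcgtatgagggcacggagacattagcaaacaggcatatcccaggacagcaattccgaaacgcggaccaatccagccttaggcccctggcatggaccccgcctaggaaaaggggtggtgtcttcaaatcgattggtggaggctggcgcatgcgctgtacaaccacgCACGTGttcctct
Ltv1: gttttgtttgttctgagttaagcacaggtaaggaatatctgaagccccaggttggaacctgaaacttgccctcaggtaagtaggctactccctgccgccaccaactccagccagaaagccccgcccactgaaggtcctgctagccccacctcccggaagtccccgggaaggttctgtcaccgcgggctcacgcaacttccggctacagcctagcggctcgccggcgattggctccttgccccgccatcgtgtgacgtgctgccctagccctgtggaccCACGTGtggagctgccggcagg
Tsr1: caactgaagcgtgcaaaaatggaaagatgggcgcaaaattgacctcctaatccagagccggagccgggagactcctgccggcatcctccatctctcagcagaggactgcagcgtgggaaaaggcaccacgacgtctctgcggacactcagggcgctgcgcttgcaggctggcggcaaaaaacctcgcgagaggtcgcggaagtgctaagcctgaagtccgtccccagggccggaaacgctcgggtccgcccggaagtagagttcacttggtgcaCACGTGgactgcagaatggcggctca

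Of the 2 partners known to bind the hexamer, Myc had 31.2, 41.8, 42 and 45.6 CPM in stimulated and 113, 183, 235 and 183 CPM in resting cells. Every stimulated library was below every resting one, the opposite of the ribosome biogenesis genes. Myc fell by 2.12 on the log2 scale (SE 0.117, edgeR adjusted p = 1.2e-05). Max had 52.2, 55.8, 51.8 and 54.2 CPM in stimulated and 53.4, 45.6, 52.9 and 60.3 CPM in resting cells (log2 fold change 0.02 ± 0.0933, edgeR adjusted p = 0.87).

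Other genes of the pathway moved mostly in the same direction. Of 131 further genes in 4 lists, 130 were tested, 101 were called higher and 6 lower, with a median log2 fold change of 0.66. Among 17 further genes of RNA polymerase I and its factors 11 rose, led by Polr2l (1.89, a subunit shared by all nuclear polymerases) and Cd3eap (1.49), and 2 fell, the promoter selectivity factor subunits Taf1c and Taf1a (both -0.30). Of 44 further small subunit factors 40 rose and none fell, led by Cirh1a (1.30) and Wdr46 (1.28). Of 54 further large subunit factors 38 rose, led by Pa2g4 (1.94) and Rpf2 (1.55), and 4 fell: Ccdc86 (-0.78), Zfp622 (-0.53), Gltscr2 (-0.49) and Sbds (-0.34). Sbds and Zfp622 act late, in the cytoplasm. Of 15 genes of the RNA exosome and of RNA trimming, 12 rose and none fell, with Dis3 and Mphosph6 both at 1.48. Of 84 ribosomal protein genes tested, 63 rose and 3 fell (median 0.48). Rps27l (2.76) and Rpl29 (1.26) rose most, and Rpl24 (-0.85), Rps27rt (-0.49) and Rps27 (-0.45) fell; near-identical copies make the counts of single ribosomal protein genes uncertain.

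The stimulation difference was largest in wild-type and smallest in 3'PAL deletion cells for most of the ribosome biogenesis genes. On log2(CPM + 1), the median difference of the 36 genes was 1.14 for the 3'RR, 1.06 for the hs3b-hs4 and 0.75 for the 3'PAL deletion, and 1.30 in wild-type cells, where the median over all genes was between -0.03 and 0.03. It reached at least 1 for 23, 20, 10 and 27 of the 36 genes in these genotypes, against 12.2, 13, 11.9 and 16% of all genes tested. The difference was largest in wild-type cells for 32 of the 36 genes (30.6% of all genes) and smallest in 3'PAL deletion cells for 34 (27.7%). The exceptions to the second count were Nop10 and Polr1c, which differed least in hs3b-hs4 deletion cells. Utp15 and Gnl3 were the only 2 with a difference below 0 in any genotype, -0.02 and -0.42 in 3'PAL deletion cells. With 1 library per genotype and state, none of this could be tested.

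**Figure D3:**
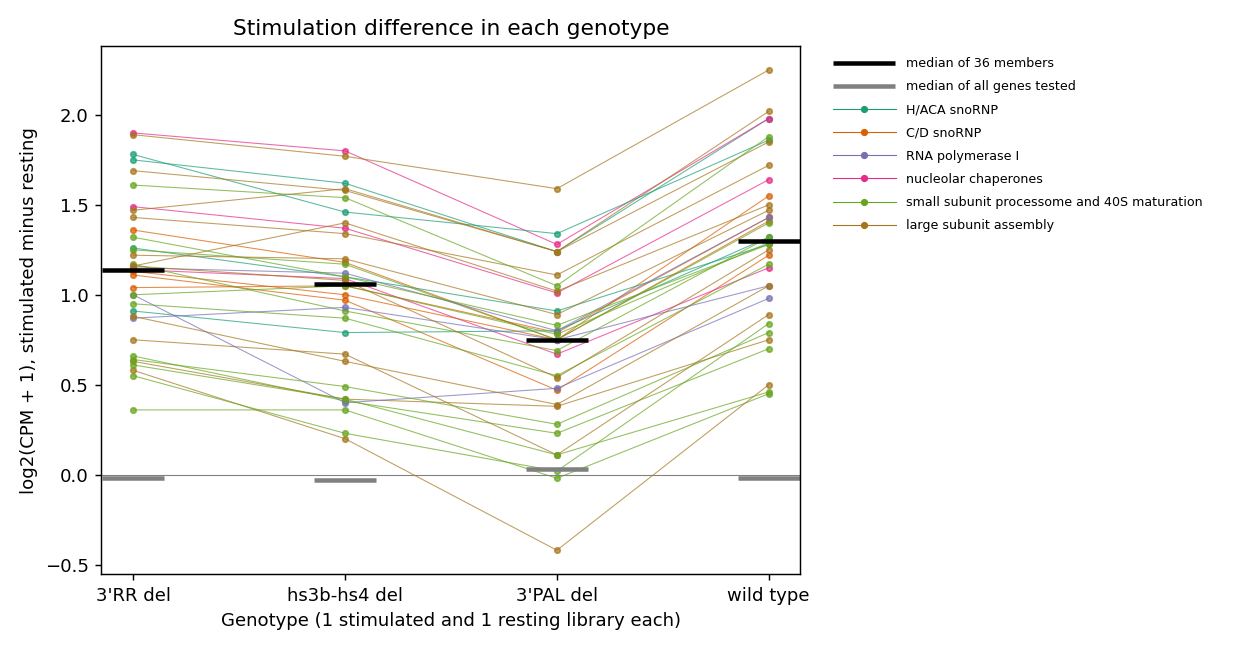
Stimulated minus resting difference in log2(CPM + 1) of each of the 36 genes (1 line per gene, coloured by role) in each genotype, with black bars for the median of the 36 genes and grey bars for the median of all genes tested. The black bars stand at 1.14, 1.06, 0.75 and 1.30, and most lines dip at 3'PAL deletion and peak at wild type.

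In the stimulated libraries themselves wild type and 3'PAL deletion were again at the ends, while hs3b-hs4 deletion lay above 3'RR deletion in the summed level. Wild type was the highest of the 4 stimulated libraries for 33 of the 36 genes, against 24.8% of all genes, the exceptions being Polr1c, Ebna1bp2 and Ltv1. The 3'PAL deletion library was the lowest for 31, against 29.4% of all genes. At rest the order was different: hs3b-hs4 deletion was the highest library for 26 genes and 3'PAL deletion for 9, and 3'RR deletion was the lowest for 24. The shares of all genes with these ranks at rest are not given here. Whether the ranks at rest are particular to the ribosome biogenesis genes is therefore not known. Erythroid markers also differed between the stimulated libraries, with sums of 154, 43.2, 244 and 10.4 CPM in 3'RR deletion, hs3b-hs4 deletion, 3'PAL deletion and wild-type cells, highest in the library where the summed level of the ribosome biogenesis genes was lowest and lowest where it was highest. Plasma cell markers summed to 2115, 1379, 1571 and 970 CPM in the same libraries. The part of either marker list in these differences was not tested.

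Each mutant was then set against wild type. The 3 comparisons share the wild-type libraries, so that a high wild-type value lowers all 3 ratios. Over both states, none of the 36 genes was called in any mutant by edgeR, where 1.88% of all genes were called for the 3'RR, 0.135% for the hs3b-hs4 and 0.514% for the 3'PAL deletion. Without adjustment 2, 1 and 1 of the genes had a p under 0.05 in that test, and DESeq2 called 1, 0 and 0. The shares of all genes are not given for these counts, so they are not read as a result about the 36 genes. The median log2 fold change of the 36 genes was -0.19, 0.01 and -0.21, against 0.05, 0.04 and 0.03 over all genes, and 32, 15 and 34 of the genes were below wild type, against 42.9, 42.4 and 44.8% of all genes.

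Ncl had the lowest adjusted p in each mutant. Its log2 fold change over both states was -0.72 ± 0.154 for the 3'RR, -0.59 ± 0.154 for the hs3b-hs4 and -0.45 for the 3'PAL deletion (edgeR adjusted p = 0.081, 0.32 and 0.401). In 3'RR deletion cells the call depended on the settings. Ncl was called by DESeq2 (-0.74, adjusted p = 0.0035), and by edgeR with library size alone or no filter (adjusted p = 0.03 and 0.028). EdgeR did not call it with RLE scaling or with TMM without globin, immunoglobulin, mitochondrial genes and AY036118 (adjusted p = 0.089 and 0.093). Without a 3'RR deletion or a wild-type library its log2 fold change ran from -0.88 to -0.63. In stimulated cells the Ncl ratio to wild type was 0.605 (95% counting interval 0.593 to 0.617) for the 3'RR, 0.652 (0.639 to 0.665) for the hs3b-hs4 and 0.617 (0.605 to 0.63) for the 3'PAL deletion. In resting cells of these mutants it was 0.607 (0.588 to 0.627), 0.675 (0.654 to 0.697) and 0.859 (0.834 to 0.885). Ncl was the only one of the 36 below wild type in all 3 mutants at rest. These intervals are exact conditional binomial ones and cover counting error only, since PCR copies are not independent molecules and each value came from 1 library. In TPM the resting wild-type value of Ncl was not the highest but the lowest, 106 TPM against 123, 128 and 148 TPM in the 3 mutants. That library had the lowest resting TPM for each of the 36 genes, so this is not particular to Ncl. With the estimated transcript counts summed per gene, the log2 fold change of Ncl for the 3'RR deletion over both states was -0.75 ± 0.173. It was not called there (edgeR adjusted p = 0.12).

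Within a state no ribosome biogenesis gene reached a log2 ratio of 1 with at least 10 CPM in the higher library. This size was reached by 1.81, 0.811 and 1.72% of all genes in stimulated 3'RR deletion, hs3b-hs4 deletion and 3'PAL deletion cells, and by 3.23, 2.04 and 2.02% in resting cells. Smaller ratios leaned one way in stimulated cells. There the median log2 ratio to wild type was -0.26, -0.12 and -0.52 in these mutants, and 35, 34 and 36 of the genes were below wild type, against 48.4, 46.9 and 45.1% of all genes. The lowest ratio was that of Pno1 in 3'PAL deletion cells (58 CPM against 101 CPM in wild-type cells, log2 ratio -0.78). All 3 mutants were below wild type for 33 of the genes in stimulated cells (24.8% of all genes tested) and for 1 in resting cells (18.9%). In resting cells the medians were -0.05, 0.14 and 0.13, and 25, 3 and 4 genes were below wild type, against 41.8, 41.7 and 42.3% of all genes.

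**Figure D4:**
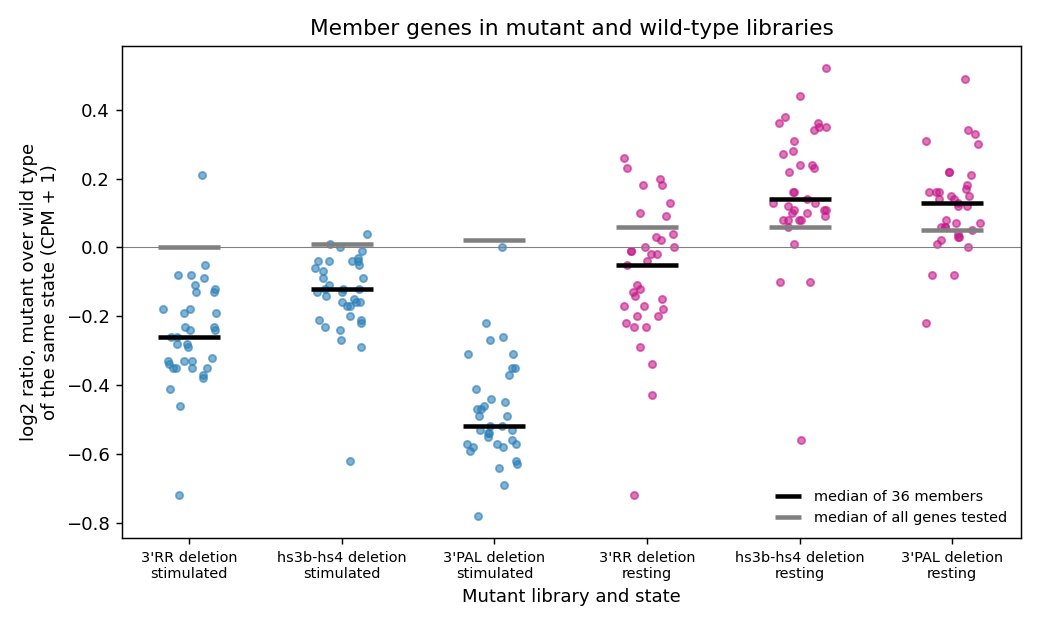
Log2 ratio of each of the 36 genes, mutant library over the wild-type library of the same state on CPM + 1 (y axis), with 1 point per gene and bars for the median of the 36 genes (black) and of all genes tested (grey). In stimulated cells the black bars lie below 0, at -0.26, -0.12 and -0.52, and in resting cells at -0.05, 0.14 and 0.13.

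The transcript table also separates forms of a gene, some of which the GENCODE M21 annotation classes as retaining an intron and which are not known to give the full protein. The share of a gene's TPM in such transcripts was followed in the 13 of the 36 genes that have them and average at least 5 TPM. This class was chosen after the transcript values had been seen. The share was lower in all 4 stimulated libraries than in all 4 resting ones for 8 of the 13, against 43.3% of 3800 genes. In Rrp9 it was 19.4, 23.9, 21.1 and 22.1% in stimulated and 48.3, 45.3, 44.6 and 44.7% in resting cells, wide apart. In Nop56, which holds snoRNA genes in its introns, it was 39.3 ± 3.77% in stimulated and 59.4 ± 4.4% in resting cells (SD, n = 4 libraries each). The others of the 8 were Nop58, Nhp2, Wdr12, Polr1c, Nob1 and Tsr1. In Nop56 the TPM of the remaining transcripts was 2.79 times as high in stimulated as in resting cells and that of intron-retaining ones 1.26 times, whereas in Rrp9 these ratios were 2.31 and 0.758. Ncl stood alone of the 13 in the other direction, with 83.3, 81.6, 84.1 and 83.9% in stimulated and 79.5, 74.4, 77.4 and 80.3% in resting cells, a pattern that 3.29% of the 3800 genes had. Transcript shares are estimates from reads that many forms have in common, and unspliced precursor RNA in these rRNA-depleted libraries cannot be told apart from a retained intron.

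**Figure D5:**
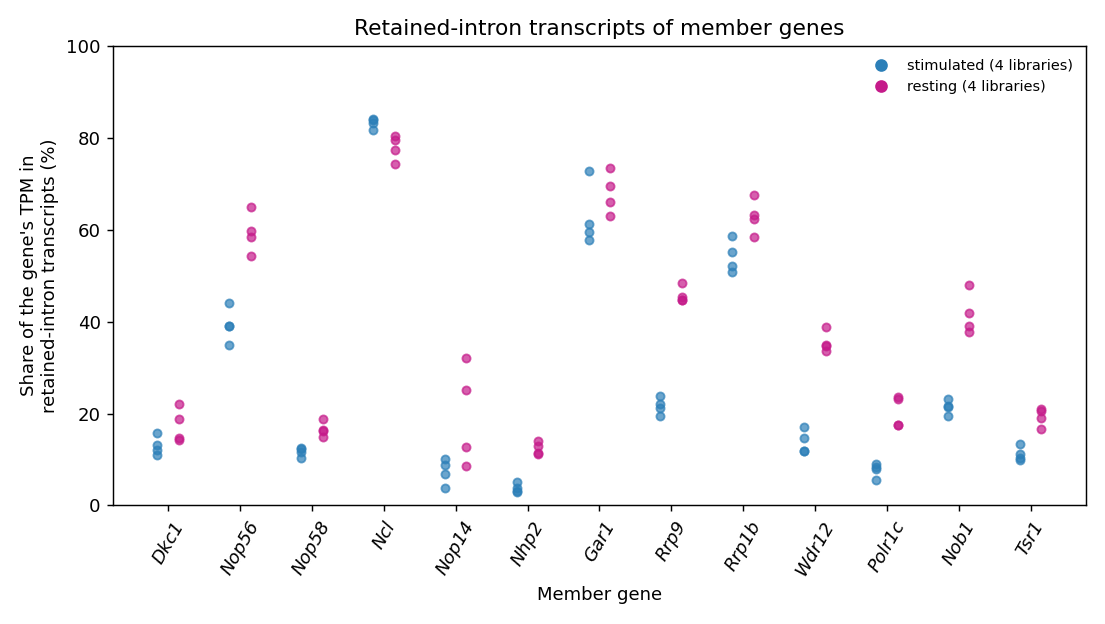
Share of each gene's TPM in transcripts annotated as retaining an intron (y axis, %), for the 13 ribosome biogenesis genes with such transcripts, with 1 point per library (4 stimulated, left, and 4 resting, right, of each pair). The stimulated points lie below all resting points in 8 genes and above them in Ncl.

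In 7 of the genes (Dkc1, Nop56, Nop58, Ncl, Wdr43, Gnl3 and Tsr1) the gene table places 21 small RNA genes, of which 11 are named snoRNAs. Of these 11, 9 had at least 50 counts over the 8 libraries. SnoRNAs guide the C/D and H/ACA particles described above and are cut from introns of their hosts. Whether the changes of the 9 snoRNAs differ from those of their hosts was not tested. Of all genes tested, 34.5% were called higher and 35.2% lower. Snord92 in Wdr43 rose by 0.98 ± 0.345 (edgeR adjusted p = 0.036), while Snord69 and Snord19 in Gnl3 and Snord91a in Tsr1 fell by 0.60, 0.60 and 0.64 (edgeR adjusted p = 0.047, 0.032 and 0.037). Snord110, Snord70, Snord11, Snord82 and Snord53 were not called. Counts were low, from 8 to 204 in single libraries, and reads of unspliced host RNA cannot be told apart from those of the snoRNA.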

How the data were processed

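Stranded, rRNA-depleted libraries of total RNA were sequenced as paired-end reads, per the labels' protocols. Whole-number gene counts were deposited by the authors, who aligned reads to GRCm38 (mm10) with STAR 2.4.0a and counted them with featureCounts of Subread 1.4.6-p1, per the submitters' processing notes. Estimated counts and TPM per transcript were deposited by the authors from kallisto 0.42.3, per the same notes. The annotation, the strand setting and the unit counted (reads or fragments) are not named in the sources used here. Annotation headers of the TPM table were shifted against their content, and columns were matched by content.

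1 entry with no gene name (0.00621 to 0.0342% of counts) and 93 spike-in entries (0 counts) were left out. The 41249 named genes were filtered with filterByExpr to 14789 and scaled by TMM (factors 0.943 to 1.08). They were fitted with edgeR 4.0.16 in R 4.3.3 (quasi-likelihood F test; genotype and state as terms, so that the genotype is the block of the comparison of states; biological coefficient of variation 16%; 3 residual degrees of freedom). The fit assumes a mutant change equal in both states and a stimulation change equal in all genotypes. P-values were adjusted over all genes tested (Benjamini-Hochberg, threshold 0.05). They weigh a change against the departures of these 8 pooled libraries from that fit, not against a spread between replicate libraries of a group. A stimulation change that differs between genotypes adds to those departures. The SE of an edgeR log2 fold change was derived from the test, as its absolute value divided by the square root of F. Fits were tested on simulated data. Alternatives were RLE scaling, library size alone, TMM without globin, immunoglobulin, mitochondrial genes and AY036118, DESeq2 1.42.0, no filter, kallisto estimated counts (summed per gene and rounded), no genotype term, pseudocounts of 0.1 and 5, and leaving out libraries or genotypes. Ratios within a state used a pseudocount of 1 CPM. Gene lists, members and the naming rule were chosen with earlier results of these data known. Per-library values are given for the largest and the smallest change in each role, every gene not called, and the genes called in a mutant. In other lists the 2 largest rises and every gene called lower are named.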

Additional observations from a re-analysis of the deposited data

Results flagged for a closer look

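In 4 of 72 groups of 4 libraries (36 genes in 2 states) a single library stood far from the other 3, and chance marks about 5% of such groups. Ncl was at 937 CPM in stimulated wild-type cells, where the stimulated mutants were between 567 and 611 CPM. Nhp2 was at 33.7 CPM in resting hs3b-hs4 deletion cells, against 28.3 to 29 CPM in the other resting libraries. Gar1 and Utp15 were low in resting 3'RR deletion cells, at 9.35 CPM (others 13 to 13.8 CPM) and 49.8 CPM (others 57.1 to 57.6 CPM).

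In 2 genes the stimulated minus resting difference on log2(CPM + 1) had one sign in 3'PAL deletion cells and the other in wild-type cells. It was -0.02 in 3'PAL deletion against 0.45 in wild-type cells for Utp15, and -0.42 against 0.50 for Gnl3. Each value comes from 1 library per state, and the difference between genotypes was not tested.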

How the results depend on the processing

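The count of genes called higher on stimulation was 34 to 35 under other scalings, tests, filters, estimated counts and no genotype term, and 32 to 36 when a library or genotype was left out. None was called lower in any of these fits. Of 684 values of single genes under alternatives, 662 kept direction and side of the threshold, 19 (Utp15, Tsr1, Ltv1) lost their call, 3 (Gnl3) gained one and none reversed. The count of genes called lower in 3'RR deletion cells was 0, but 1 (Ncl) with library size alone, 1 with DESeq2, 1 with no filter, and 0 to 1 with a library left out; the cause was not tested. Library size alone moved the median of all genes to -0.09. Wild type was the highest stimulated library for 33 to 35 genes and differed most for 28 to 32, and 3'PAL deletion was lowest for 31 to 33 and differed least for 30 to 35, under other scalings and estimated counts, an alternative chosen after seeing the data. Counting processed transcripts beside retained introns, also chosen after seeing the data, gave 15 of 18 genes with a lower share (41.1% of all genes). With retained introns alone, leaving out the resting wild-type library gave 9 of 13 (45.6% of all genes). Having 1 library per genotype and state limits every comparison of genotypes.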

Other observations

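The place of wild type and 3'PAL deletion at the ends, as in the 36 ribosome biogenesis genes, was also looked for in the 130 other genes of the pathway. The stimulated 3'PAL deletion library was the lowest of its state for 114 of them (87.7%) and the wild-type library the highest for 91 (70%). The stimulated minus resting difference was smallest in 3'PAL deletion cells for 109 (83.8%) and largest in wild-type cells for 81 (62.3%). Among the 5108 genes called higher on stimulation by edgeR these shares were 50.5, 41.3, 45.9 and 49.5%. The median log2 difference of the 130 genes was 0.71 for the 3'RR, 0.68 for the hs3b-hs4 and 0.39 for the 3'PAL deletion, and 0.84 in wild-type cells. The 130 genes share their 8 libraries with the 36, so that they are no separate evidence.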
